A study of Mus musculus with 18 samples.

Results

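Rnf43, Gm33707, Gm42427 and Gm10524 are 4 of the 46073 genes measured in splenic donor T cells after haematopoietic stem cell transplantation, and they were picked because their RNA differed between Wapl KO and WT donor T cells. The identifiers are ENSMUSG00000034177 (Rnf43), ENSMUSG00000102298 (Gm33707), ENSMUSG00000105263 (Gm42427, listed in the table under a clone name) and ENSMUSG00000097141 (Gm10524). All 4 were among the 18447 genes with enough reads to test, Gm33707 through its KO libraries only. They were chosen by the measured differences between KO and WT libraries, so those differences are given below as a description, without a test. Rnf43 and Gm33707 were higher in KO, while Gm42427 and Gm10524 were lower. The working description of the set, a shift by Wapl KO in both transplant settings, matched Rnf43, Gm33707 and Gm42427 in the main fit. This restates the values that chose the genes. Gm10524 was past the threshold in the allogeneic setting only, and its syngeneic difference was smaller. With allogeneic WT replicate 1, 2 or 3 left out, 1 of the 4 genes, Gm33707, was still past the allogeneic threshold, and Gm10524 fell short of it whichever 1 of the 12 libraries was left out, as well as with the replicate block and without the filter on low counts. In a fit of the 6 allogeneic libraries alone, Gm33707 was again the only one of the 4 past the allogeneic threshold. Gm33707, Gm42427 and Rnf43 stayed past the syngeneic threshold with any single library left out and in a fit of that setting alone.

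Total RNA was sequenced from T cells that had been taken from the spleens of donor mice, transplanted, and recovered 7 days later from the recipients' spleens. The allogeneic KO and allogeneic WT libraries came from CByJ.SJL(B6)-Ptprca/J recipients, whose tissues carry another MHC haplotype, after 8 Gy of irradiation and 1000000 donor T cells. The syngeneic KO and syngeneic WT libraries came from B6.SJL-Ptprca Pepcb/BoyJ recipients, which match the donors, after 9.5 Gy and 8500000 donor T cells. Recipient strain, irradiation and T cell dose all differ between the settings and cannot be told apart. Each of these 4 groups had 3 libraries, described as independent replicates, each from a pool of 2 to 4 mice, and all recipients also received 5000000 marrow cells depleted of T cells. The mice were 8 to 12 weeks old. WT donors were female C57BL/6 mice. The labels give the KO donors no separate sex and name neither the Cre line nor the deleted exons. Viable donor cells were recovered by sorting on CD3 together with CD45.2, the donor form of CD45.

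Library totals ran from 45965659 to 89007100 counts, and levels are given as CPM (counts per 1000000 counts of the TMM-adjusted library size) unless stated. Wapl itself (listed as Wapal), whose product releases the cohesin ring from chromosomes, had 145, 124 and 151 CPM in allogeneic KO, 169, 156 and 158 in allogeneic WT, 127, 139 and 137 in syngeneic KO and 170, 211 and 183 in syngeneic WT libraries. Its KO minus WT log2 fold change was −0.20 ± 0.11 (SE, edgeR adjusted p = 0.963) in the allogeneic and −0.48 ± 0.11 (adjusted p = 0.0368, and 0.0602 with the replicate number as a block) in the syngeneic setting. The syngeneic call of Wapl held in 7 of 18 alternative fits (highest edgeR adjusted p = 0.198). The deleted exons are not named in the labels, so whether the Wapl counts cover them was not tested. The 12 T cell markers, CD3 chains and CD4 and CD8 among them, summed to between 3364 and 6379 CPM in every library. The 15 B cell markers varied widely between replicates. They summed to 495 to 3268 CPM in allogeneic KO and 1259 to 1879 CPM in allogeneic WT libraries. In the syngeneic setting they summed to 548 to 2820 CPM in KO and 595 to 1164 CPM in WT libraries. The 4 Y-linked genes summed to between 31.4 and 138 CPM in the 6 KO libraries and between 0.733 and 1.75 CPM in the 6 WT libraries. KO and a difference in donor sex therefore cannot be told apart for the KO minus WT value of any other gene here. Erythroid markers summed to between 46.6 and 178 CPM in syngeneic KO and between 2480 and 6011 CPM in syngeneic WT libraries. Syngeneic KO replicate 1 stood apart with 32.0% of its counts on ribosomal RNA genes, against 8.19 to 23.96% in the other 11 libraries.

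The 4 genes are of different kinds. Rnf43 encodes a transmembrane RING-type E3 ubiquitin ligase of the PA-TM-RING family. Together with its close relative Znrf3 it marks Frizzled receptors for removal from the cell surface and so lowers the response of a cell to Wnt ligands; R-spondins, through Lgr receptors, remove both ligases from the membrane. Wnt signals are carried inward by beta-catenin to TCF and LEF factors, of which Tcf7 and Lef1 are high in naive T cells and low in effector T cells. Gm33707 is annotated as a processed pseudogene, an intronless copy of a messenger RNA. Gm42427 and Gm10524 carry the annotation type TEC, used for transcribed loci that still await experimental evidence, and no function is annotated.

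**Figure D1:**
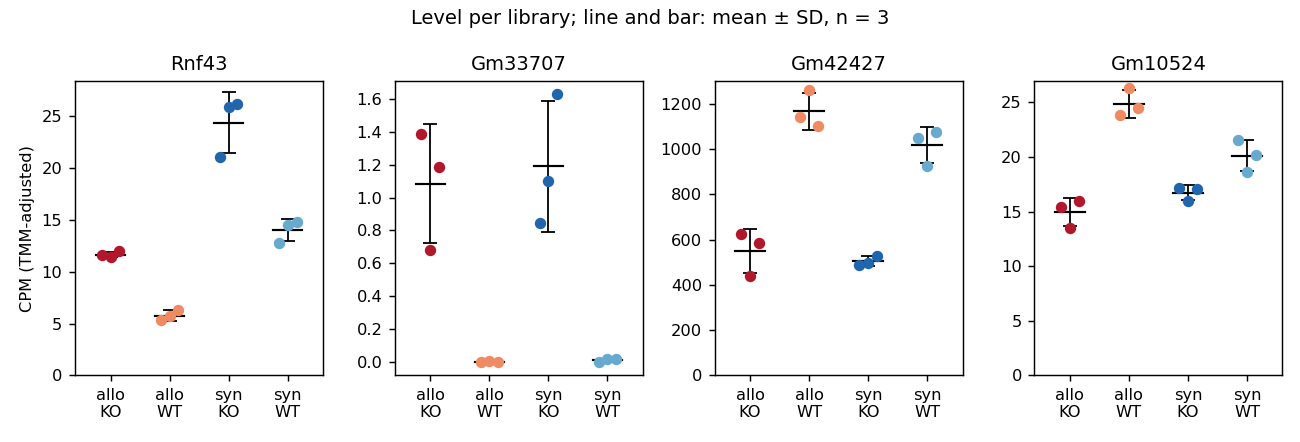
Level of each of the 4 genes in CPM (y axis) in allogeneic KO, allogeneic WT, syngeneic KO and syngeneic WT libraries (x axis). Points are single libraries and bars are the mean ± SD of 3. Rnf43 separates all 4 groups, Gm33707 is near 0 in all 6 WT libraries, and Gm42427 is lower in all 6 KO than in all 6 WT libraries.

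Rnf43 lies on chromosome 11 from 87662722 to 87735539 on the plus strand (GRCm38). It had 11.6, 11.4 and 12.0 CPM in allogeneic KO and 5.31, 5.70 and 6.32 CPM in allogeneic WT libraries. In the syngeneic setting it had 21.04, 25.9 and 26.2 CPM in KO and 12.8, 14.6 and 14.8 CPM in WT libraries. The 4 groups did not overlap: syngeneic KO stood highest, then syngeneic WT, allogeneic KO and allogeneic WT. Fitted KO minus WT log2 fold changes were 1.01 ± 0.13 (SE) in the allogeneic and 0.80 ± 0.13 in the syngeneic setting. Over all tested genes, 10 (0.0542%) were called in the allogeneic and 622 (3.37%) in the syngeneic comparison at an edgeR adjusted p under 0.05. By direction these were 0.0434% higher and 0.0108% lower in allogeneic KO, and 0.743% higher and 2.63% lower in syngeneic KO. Of the 4 genes described here, all 4 were among the allogeneic and 3 among the syngeneic calls, which the choice of the genes fixes.

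The comparison of allogeneic with syngeneic libraries, averaged over KO and WT, was not used to choose the genes and was tested. Rnf43 fell in the allogeneic setting, with a log2 fold change of −1.17 ± 0.09 (95% interval −1.38 to −0.97, edgeR adjusted p = 6.25e-07, n = 6 per setting). Every allogeneic library lay below every syngeneic one. The difference was −1.06 ± 0.13 among KO and −1.28 ± 0.13 among WT libraries. Rnf43 was the only one of the 4 genes called in this comparison, in which 8553 genes (46.4%) were called. The 8 natural killer cell markers, Gzma among them, summed to between 983 and 2308 CPM in allogeneic libraries. In syngeneic libraries they summed to between 171 and 222 CPM. They did not move as a group, with 3 of 8 called higher and 3 lower. Their log2 fold changes between settings ran from −6.00 to 5.73, with a median of 0.07. Their part in the Rnf43 difference was not tested. In such bulk libraries fewer cells of a type and less RNA per cell cannot be told apart.

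Znrf3, which shares the role of Rnf43 at Frizzled receptors, did not show the KO difference of Rnf43 but did show its fall with setting. It had 8.30, 5.80 and 13.8 CPM in allogeneic KO and 8.26, 12.2 and 9.57 CPM in allogeneic WT libraries. Syngeneic libraries had 42.5, 48.5 and 48.6 CPM in KO and 61.2, 53.5 and 54.6 CPM in WT. Its KO minus WT log2 fold change was −0.11 ± 0.25 (adjusted p = 0.982) in the allogeneic and −0.28 ± 0.24 (adjusted p = 0.623) in the syngeneic setting. KO and WT overlapped in the allogeneic setting and not in the syngeneic one. Between settings Znrf3 fell by 2.41 ± 0.18 on the log2 scale (adjusted p = 4.55e-07).

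Of the PA-TM-RING ligases other than Rnf43, 8 were tested, Znrf3 included. In KO minus WT, 0 of 8 were called in either setting by edgeR, with an unadjusted p under 0.05 for 1 in each. DESeq2 called 1 in the allogeneic setting, Rnf13, a ligase of endosomal membranes. Of all 18447 tested genes, DESeq2 called 77 in that comparison. Rnf13 had 22.2, 38.6 and 27.7 CPM in allogeneic KO and 15.4, 16.4 and 14.97 CPM in allogeneic WT libraries, without overlap. Its fitted difference was 0.92 ± 0.18 (edgeR adjusted p = 0.216, DESeq2 adjusted p = 0.00284) there and 0.51 ± 0.18 (edgeR adjusted p = 0.203) in the syngeneic setting. The median of the 8 genes was −0.10 and −0.10 in the allogeneic and syngeneic comparisons, against 0.03 and 0.06 over all tested genes. Between settings, 2 of the 8 were higher and 3 lower in allogeneic libraries, where 23.2% of all tested genes were higher and 23.1% lower. Rnf128, known as GRAIL and as a brake on T cell activation, rose by 1.28 ± 0.24 (adjusted p = 0.000856), to 2.14 ± 0.335 CPM in allogeneic KO and 2.95 ± 0.544 in allogeneic WT, against 0.968 ± 0.502 in syngeneic KO and 1.11 ± 0.254 in syngeneic WT (SD, n = 3). Rnf215 rose by 0.72 ± 0.10 (adjusted p = 5.44e-05). Rnf130 fell by 1.15 ± 0.15 (adjusted p = 3.95e-05).

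The rest of the Wnt pathway was read from 5 lists with 71 tested genes. In the allogeneic KO minus WT comparison 0 of 71 were called by edgeR and 0 by DESeq2, with an unadjusted p under 0.05 for 3. The median was −0.10, against 0.03 over all tested genes. In the syngeneic comparison 2 of 71 were called, both lower in KO, with an unadjusted p under 0.05 for 7. Of all tested genes 3.37% were called and 2.63% were lower, so the count of calls is near the share over all genes. The median was −0.02 against 0.06. Btrc, the F-box protein that recognises phosphorylated beta-catenin for destruction, had 12.9, 12.1 and 12.2 CPM in syngeneic KO and 17.3, 28.1 and 25.8 CPM in syngeneic WT libraries. Its fall was 0.93 ± 0.17 in log2 units (adjusted p = 0.0088, and 0.0179 with the replicate block). Frat2, which binds the kinase GSK3, had 11.0, 8.82 and 10.1 CPM in syngeneic KO and 19.6, 17.2 and 14.8 CPM in syngeneic WT libraries. It fell by 0.79 ± 0.19 (adjusted p = 0.0364, and 0.0560 with the block, which ends the call). Erythroid markers were lower in the same syngeneic KO libraries, with 12 of 14 called, as were 10 of 20 myeloid markers, and their part was not tested. Without syngeneic KO replicate 2, or without syngeneic WT replicate 2 or 3, 0 of the 71 were called, and 1 was called without syngeneic KO replicate 1 or 3.

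Axin2, a feedback inhibitor widely read as a Wnt target and named here after its values were seen, averaged 34.5 ± 4.23 CPM in allogeneic KO and 53.2 ± 6.18 CPM in allogeneic WT (SD, n = 3). Its log2 fold change was −0.63 ± 0.16 (adjusted p = 0.428) in the allogeneic and −0.06 ± 0.16 (adjusted p = 0.892) in the syngeneic setting.

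Between settings, 43 of the 71 Wnt genes were called, 17 higher and 26 lower in allogeneic libraries, against 23.2% higher and 23.1% lower over all tested genes. The list median was −0.25, against −0.03. In the same comparison 13 of 14 erythroid markers were called lower (median −3.86), but their sums were high in syngeneic WT only. They summed to 42.8 to 65.5 CPM in allogeneic KO and 31.8 to 107 in allogeneic WT. Syngeneic KO libraries had 46.6 to 178 CPM and syngeneic WT libraries 2480 to 6011 CPM. Ribosomal RNA genes took 8.19 to 17.9% of counts in allogeneic and 20.1 to 32.0% in syngeneic libraries. The part of erythroid and ribosomal RNA in these differences was not tested. Among TCF/LEF factors and coactivators, 4 of 15 rose and 7 fell. Tcf7 fell by 1.98 ± 0.16 (adjusted p = 5.35e-07), to between 145 and 236 CPM in allogeneic libraries, against 622 to 938 CPM in syngeneic ones. Lef1 fell by 1.09 ± 0.12 (adjusted p = 1.25e-05). Bcl9, a coactivator that docks on beta-catenin, fell by 1.38 ± 0.15 (adjusted p = 1.27e-05), and Ctnnbip1, which keeps beta-catenin from TCF, rose by 0.96 ± 0.15 (adjusted p = 0.000236).

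Receptors and their turnover had 4 of 16 higher and 5 lower. Kremen2, a Dickkopf receptor, rose by 2.11 ± 0.16 (adjusted p = 4.44e-07). Ryk, a Wnt receptor with a kinase-like domain, rose by 1.19 ± 0.14 (adjusted p = 1.64e-05). Sfrp2, a secreted Wnt antagonist, fell by 3.23 ± 0.39 (adjusted p = 2.62e-05) at levels near or below 1 CPM. Ligands and their secretion had 1 of 9 higher, Wnt10b, and 4 lower, Wnt5b, Wnt10a and Wnt16 at low levels and Wls, the carrier that Wnt proteins need for secretion, which fell by 0.36 ± 0.11 (adjusted p = 0.0161).

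Of the genes that carry the beta-catenin signal, 5 of 22 were higher and 5 lower. Fbxw11, a paralogue of Btrc, rose by 0.43 ± 0.07 (adjusted p = 0.000282), and Dvl2, a Dishevelled adaptor, fell by 0.43 ± 0.08 (adjusted p = 0.0012). Feedback and target genes had 3 of 9 higher and 5 lower. Myc fell by 1.25 ± 0.10 (adjusted p = 8.43e-07) and Sox4 by 2.12 ± 0.24 (adjusted p = 1.30e-05), while Cd44, an adhesion receptor of activated T cells, rose by 0.76 ± 0.09 (adjusted p = 1.32e-05).

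**Figure D2:**
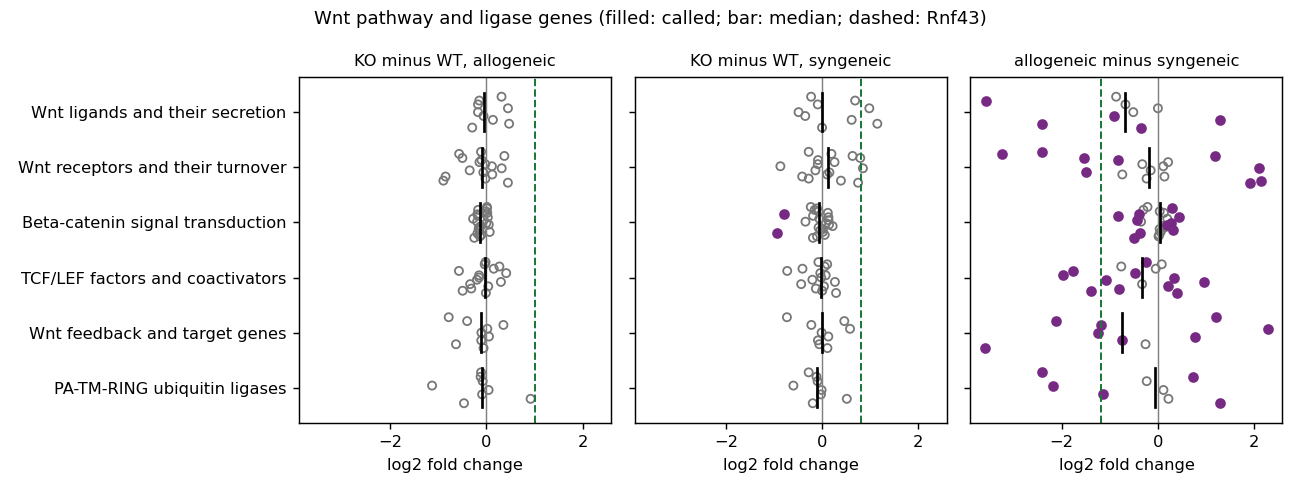
Fitted log2 fold changes (x axis) of tested genes of 5 Wnt lists and of the PA-TM-RING ligases (rows) in 3 comparisons. Filled points are called at an edgeR adjusted p under 0.05, bars are list medians, and the dashed line is Rnf43. Calls among the Wnt genes number 0 in allogeneic KO minus WT, 2 in syngeneic KO minus WT and 43 between settings.

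Over the 12 libraries, the tested genes whose log2 CPM ran most like Rnf43 were Ifi208 (Pearson r = 0.950), Dscam (0.940), Setbp1 (0.939), Sh3d19 (0.930) and Rttn (0.929). These correlations describe points that share their genotype and setting, and no test is attached. Ifi208, an interferon-inducible PYHIN family gene, was also called in both KO minus WT comparisons. It had 30.6, 36.3 and 34.1 CPM in allogeneic KO and 6.54, 9.05 and 8.48 CPM in allogeneic WT libraries. In the syngeneic setting it had 111, 89.6 and 69.3 CPM in KO and 63.4, 49.2 and 48.8 CPM in WT libraries. Like Rnf43 it was higher in KO than in WT and lower in the allogeneic setting, by 2.08 ± 0.13 in log2 units (adjusted p = 7.10e-08).

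Gm33707 lies on chromosome 3 from 60769887 to 60770455 on the minus strand (GRCm38) and resembles the messenger RNA of Eno1, a glycolytic enolase. Its 569 bases aligned with Eno1 at 89.2% identity over 576 aligned columns. The first 180 bases of Gm33707 and the Eno1 bases aligned with them (GENCODE M21 transcripts, 5′ to 3′) are printed to show how far the copy can be told from Eno1; capitals mark the 11 positions at which they differ. The Gm33707 stretch is chr3:60770276-60770455 on the minus strand, and the Eno1 stretch covers bases 1128 to 1307 of 1 of its annotated transcripts.
Gm33707: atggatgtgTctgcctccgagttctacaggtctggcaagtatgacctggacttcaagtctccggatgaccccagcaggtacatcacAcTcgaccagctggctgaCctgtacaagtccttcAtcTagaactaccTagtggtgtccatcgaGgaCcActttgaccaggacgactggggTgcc
Eno1: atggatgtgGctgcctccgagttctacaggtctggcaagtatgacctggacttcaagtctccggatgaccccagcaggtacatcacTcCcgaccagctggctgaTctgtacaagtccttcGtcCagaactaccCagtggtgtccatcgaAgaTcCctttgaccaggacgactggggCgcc

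Gm33707 was present in KO libraries and nearly absent from WT libraries. It had 1.38, 0.684 and 1.19 CPM in allogeneic KO libraries, which are 59, 41 and 82 reads, against 0, 1 and 0 reads in allogeneic WT. Syngeneic KO libraries had 42, 64 and 82 reads, or 0.844, 1.1 and 1.63 CPM, against 0, 1 and 1 reads in syngeneic WT. KO and WT did not overlap in either setting; over all tested genes, 7.66% in the allogeneic and 23.3% in the syngeneic setting had no overlap between the 3 KO and 3 WT libraries. The summed reads were 182 in allogeneic KO and 1 in allogeneic WT, a ratio of 228 after scaling for library size (95% interval from counting error alone 40.4 to 9054). In the syngeneic setting the sums were 188 in KO and 2 in WT, a ratio of 108 (29.4 to 896). Between settings the log2 fold change was −0.56 ± 0.62 (95% interval −1.91 to 0.79, adjusted p = 0.505), an interval that also holds sizeable differences of either sign.

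Eno1 itself did not show this pattern. Eno1 had 443, 379 and 272 CPM in allogeneic KO and 339, 295 and 327 CPM in allogeneic WT libraries, and 386, 319 and 347 CPM in syngeneic KO against 295, 204 and 246 CPM in syngeneic WT. Its KO minus WT log2 fold change was 0.19 ± 0.18 (adjusted p = 0.963) in the allogeneic and 0.50 ± 0.18 (adjusted p = 0.212) in the syngeneic setting. WT libraries thus held Eno1 at over 200 CPM with at most 1 read on Gm33707. Gm4735, another processed pseudogene that matches Gm33707 at 89.5%, averaged 3.24 ± 0.221 CPM in allogeneic KO, 2.65 ± 0.151 in allogeneic WT, 3.05 ± 0.494 in syngeneic KO and 2.18 ± 0.318 in syngeneic WT. Among copies this alike, how the counting divided reads is not given in the sources used here, so the level of each copy is uncertain.

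The lincRNA Gm38326, which lies 17905 bases from Gm33707 and fell under the filter on low counts, was likewise higher in all KO than in all WT libraries. It was called in the syngeneic comparison with the filter left out. It had 6, 8 and 10 reads in allogeneic KO and 0, 0 and 1 in allogeneic WT libraries, a ratio of 30.1 (counting interval 4.90 to 1236). Syngeneic libraries had 9, 19 and 13 reads in KO and 1, 1 and 0 in WT, a ratio of 23.5 (6.10 to 200). No tested gene lay within 100 kb of Gm33707. The nearest tested genes were Mbnl1, a splicing regulator, on the left and the pseudogene Gm8325 on the right. Mbnl1 had 872, 888 and 965 CPM in allogeneic KO and 700, 662 and 688 CPM in allogeneic WT libraries. Its log2 fold change was 0.41 ± 0.11 (edgeR adjusted p = 0.600, DESeq2 adjusted p = 0.00203) there and 0.32 ± 0.11 (edgeR adjusted p = 0.208, DESeq2 adjusted p = 0.0120) in the syngeneic setting.

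The 5 tested genes most like Gm33707 over the 12 libraries were Ddx3y (r = 0.984), Eif2s3y (0.980), Hist1h4m (0.973), Uty (0.968) and Kdm5d (0.967). Of these, 4 lie on the Y chromosome, and Hist1h4m is a histone H4 gene on chromosome 13. Hist1h4m had 79.9, 84.2 and 33.7 CPM in allogeneic KO and at most 0.226 CPM in allogeneic WT libraries, and 58.3, 29.9 and 31.3 CPM in syngeneic KO against at most 0.324 CPM in syngeneic WT. For Gm33707 and Hist1h4m, genotype and donor sex, or any other difference between the 2 kinds of donor, cannot be told apart.

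Gm42427 lies on chromosome 5 from 44137980 to 44143271 on the plus strand and Gm10524 on chromosome 18 from 82692284 to 82694176 on the plus strand (GRCm38). Gm42427 was among the most abundant RNAs of these cells. Its mean ranked 189 and 46 among the genes of the table in allogeneic KO and allogeneic WT, and 194 and 45 in syngeneic KO and syngeneic WT. It had 624, 441 and 588 CPM in allogeneic KO and 1142, 1261 and 1101 CPM in allogeneic WT libraries. In syngeneic libraries it had 490, 499 and 529 CPM in KO and 1050, 927 and 1074 CPM in WT. All KO libraries lay below all WT libraries, the 2 KO groups overlapped, and allogeneic WT stood above syngeneic WT. The KO minus WT log2 fold changes were −1.08 ± 0.14 (SE) and −1.01 ± 0.14 in the allogeneic and syngeneic settings.

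Gm10524 was much lower and moved less. It had 15.4, 13.5 and 15.96 CPM in allogeneic KO and 23.9, 26.3 and 24.5 CPM in allogeneic WT libraries. Syngeneic libraries had 17.1, 15.9 and 17.1 CPM in KO and 21.5, 18.7 and 20.2 CPM in WT. Within each setting KO lay below WT without overlap, and allogeneic WT was the highest group. The differences were −0.73 ± 0.11 in the allogeneic and −0.27 ± 0.11 in the syngeneic setting, −0.47 ± 0.16 apart. Per kilobase of transcript, Gm42427 averaged 104 CPM in allogeneic KO and 221 in allogeneic WT, and Gm10524 averaged 7.90 and 13.1. Neither gene was called between settings, with 0.16 ± 0.10 for Gm42427 (95% interval −0.06 to 0.38, adjusted p = 0.209) and 0.07 ± 0.08 for Gm10524 (−0.10 to 0.25, adjusted p = 0.483). Without allogeneic KO replicate 2, the lowest allogeneic KO library, the Gm42427 value was 0.26 and was called (adjusted p = 0.0224).

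In the allogeneic comparison Gm10524 stood just inside the threshold. Just outside it stood the pseudogene Gm5575, at −4.12 ± 0.66, with 1, 0 and 3 reads in allogeneic KO and 20, 47 and 28 reads in allogeneic WT libraries. Gm5575 was also the gene most like Gm42427 over the 12 libraries (r = 0.981). Gm42974 (0.958), Gm42428 (0.951), Gm10524 (0.918) and Camk2b (0.887) came next. Those most like Gm10524 were Gm42974 (0.940), Gm42427 (0.918), Gm5575 (0.886), Camk2b (0.860) and Gm42428 (0.853).

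The 2 genes share sequence. Bases 4666 to 5291 of the 5292-base Gm42427 transcript matched bases 1268 to 1893 of Gm10524 at 99.7% identity over 626 bases, with an identical run of 307. The stretch is 33.1% of Gm10524 and 11.8% of Gm42427. Gm42429, another locus 3029 bases before Gm42427 on the same strand, is identical over its whole 558 bases to bases 4699 to 5256 of Gm42427, so the same sequence stands at both ends of a span of 8879 bases. Gm42429 had 0 reads in all 12 libraries. AC158975.2, which begins 110 bases after Gm10524 and is not a row of the table, matched Gm42427 at 99.7% over 1854 bases. Reads from such stretches fit more than 1 locus, and which locus they were given is not stated in the sources used here. The levels of Gm42427 and Gm10524 are therefore uncertain where they overlap in sequence, and their correlation over the libraries (r = 0.918) is between genes that can share reads. Gm10524 also has 600 bases inside Zfp236 on the opposite strand, 241 of them over exons. The KO minus WT value of Zfp236 was −0.26 ± 0.16 on the log2 scale (adjusted p = 0.963) in the allogeneic and −0.22 ± 0.16 (adjusted p = 0.546) in the syngeneic setting.

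**Figure D3:**
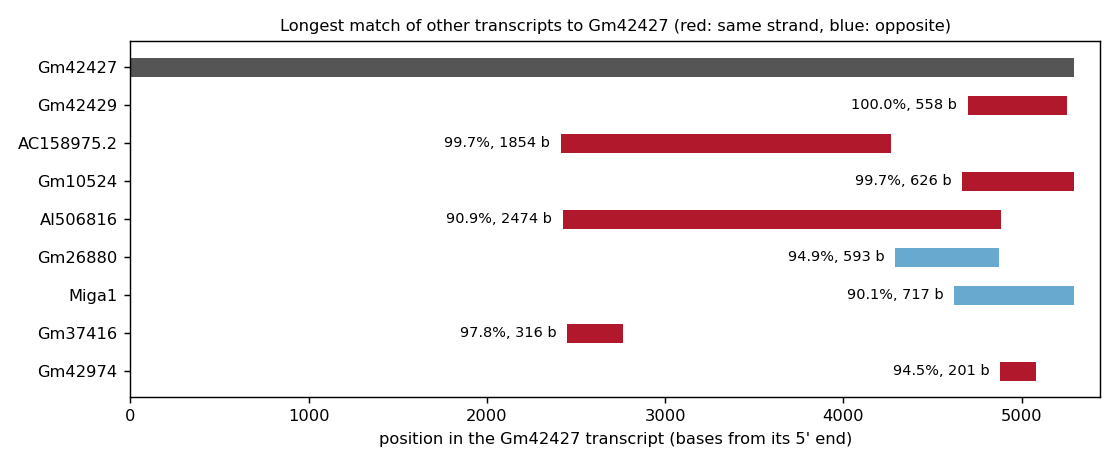
Longest match of 8 other transcripts along the Gm42427 transcript (x axis, bases from its 5′ end), on the same strand in red and the opposite strand in blue, with identity and aligned bases beside each bar. The matches shown lie from base 2415 onward, and Gm42429 and Gm10524 match at the 3′ end. Other matches, not drawn, begin earlier, among them Gm46223 at base 2091 and Gm43305 at base 823.

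Other genes carry related sequence, so their values were set beside those of Gm42427. Of 27 genes that matched it over at least 100 bases at 90% identity or more, 22 were in the table, and 16 other than Gm10524 were tested. In the allogeneic KO minus WT comparison 0 of 16 were called by edgeR, with an unadjusted p under 0.05 for 5. DESeq2 called 4 of 16 there, and 77 of all 18447 tested genes. The 4 were Gm26880, Gm42974, Cnbd2 and Miga1, all lower in KO. The fitted value was below 0 for 13 of 16, with a median of −0.19 against 0.03 over all tested genes. In the syngeneic comparison edgeR called 1, Gm26880, and DESeq2 called 3, Gm26880, Gm42974 and Miga1, all lower in KO. Of all 18447 tested genes, edgeR called 622 and DESeq2 called 1018 in that comparison. There 9 of 16 were below 0, with a median of −0.03 against 0.06. Gm26880, a lincRNA on chromosome 4 that matches on the opposite strand at 94.9% over 593 bases, had 24.5, 17.3 and 19.1 CPM in allogeneic KO and 37.8, 38.3 and 41.2 CPM in allogeneic WT libraries. It had 9.55, 10.5 and 13.2 CPM in syngeneic KO and 19.8, 16.3 and 19.1 CPM in syngeneic WT libraries. Its log2 fold changes were −0.95 ± 0.16 (adjusted p = 0.0659) and −0.73 ± 0.16 (adjusted p = 0.0224) in the allogeneic and syngeneic settings. The syngeneic call was lost without syngeneic KO replicate 1 or 2 or syngeneic WT replicate 1 or 3, at adjusted p of 0.0622, 0.109, 0.0615 and 0.0969.

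Of the genes other than Gm10524 that matched over at least 300 bases at 90% or more, 5 were tested. In the allogeneic comparison 5 of 5 were below 0, with a median of −0.48 and an unadjusted p under 0.05 for 3. In the syngeneic comparison 4 of 5 were below 0, with a median of −0.22 and an unadjusted p under 0.05 for 2. The values still differed in size between these genes. AI506816, a noncoding RNA of chromosome 5 that matches over 2474 bases at 90.9% on the same strand, had 534, 421 and 427 CPM in allogeneic KO and 513, 479 and 461 CPM in allogeneic WT libraries. Its log2 fold change was −0.07 ± 0.12 (adjusted p = 0.969) there and 0.24 ± 0.12 (adjusted p = 0.409) in the syngeneic setting. Chd9, a chromatin remodeller with 337 matching bases, stood at −0.01 ± 0.18 (adjusted p = 0.997) and −0.13 ± 0.18 (adjusted p = 0.764).

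**Figure D4:**
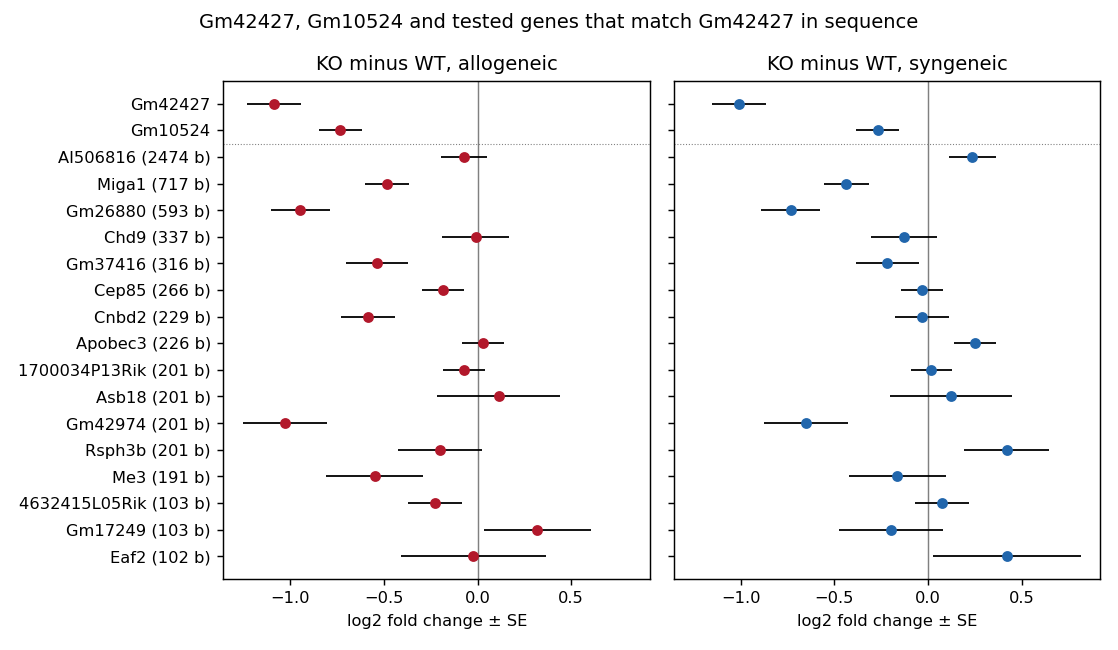
KO minus WT log2 fold change ± SE (x axis) in the allogeneic and syngeneic settings for Gm42427, Gm10524 and the 16 other tested genes that match Gm42427, in order of aligned bases. The allogeneic values run from −1.08 for Gm42427 to above 0, with 13 of the 16 other genes below 0.

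Genes beside the 4 loci were mostly not called. Within 500 kb of them lay 49 other tested genes. In the allogeneic KO minus WT comparison 0 of 49 were called by edgeR, with an unadjusted p under 0.05 for 6, and 2 by DESeq2, Mbnl1 and Gm42428. DESeq2 called 77 of all 18447 tested genes there. In the syngeneic comparison 2 of 49 were called, both lower in KO and both beside Gm42427, a count near the 3.37% called over all tested genes. An unadjusted p under 0.05 was found there for 12 of 49, 7 of them beside Gm42427. Gm42428, a lincRNA 1059 bases before Gm42427 inside the same span, had 17.9, 9.02 and 14.5 CPM in allogeneic KO and 25.5, 32.0 and 28.5 CPM in allogeneic WT libraries. In the syngeneic setting it had 8.16, 10.5 and 14.1 CPM in KO and 23.5, 21.1 and 22.6 CPM in WT libraries. KO lay below WT in both settings, with −1.05 ± 0.23 (adjusted p = 0.292) in the allogeneic and −1.04 ± 0.24 (adjusted p = 0.0289) in the syngeneic setting. Prom1, which encodes the membrane glycoprotein CD133 and lies 35.9 kb before Gm42427, was at −0.26 ± 0.30 (adjusted p = 0.963) in the allogeneic and −1.45 ± 0.31 (adjusted p = 0.0195) in the syngeneic setting. In the same syngeneic comparison 12 of 14 erythroid markers were called lower in KO, and their part in the Prom1 value was not tested. Leaving out single syngeneic libraries ends both calls: for Prom1 KO replicate 1 or 2 or WT replicate 2 or 3, and for Gm42428 KO replicate 1 or 2 or any WT replicate. The Gm42428 call was also lost without allogeneic WT replicate 3 (adjusted p = 0.0528). On the other side Tapt1, 31.9 kb away, was at −0.36 ± 0.10 (edgeR adjusted p = 0.0866) in the syngeneic setting. Tapt1 was called there by DESeq2 (adjusted p = 0.00448), with ribosomal RNA genes left out (0.0429) and without allogeneic KO replicate 2 (0.0439).

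None of the 22 tested neighbours of Rnf43 was called in either KO minus WT comparison in the edgeR fit of all 12 libraries with the filter and without the block. The nearest outside the Rnf43 locus, Supt4a, a transcription elongation factor subunit 2.01 kb after its end, stood at 0.32 ± 0.28 (adjusted p = 0.963) in the allogeneic and 0.17 ± 0.28 (adjusted p = 0.811) in the syngeneic setting. The nearest on the other side was Mtmr4, a lipid phosphatase, at 0.03 ± 0.15 (adjusted p = 0.994) and −0.02 ± 0.15 (adjusted p = 0.972). Ppm1e, a protein phosphatase farther out that is named after its values were seen, was at −1.55 ± 0.40 (edgeR adjusted p = 0.0529) in the syngeneic setting and was called there by DESeq2, with the replicate block and without the filter. Ppm1e was also called there without syngeneic KO replicate 3 (edgeR adjusted p = 0.0246) and without syngeneic WT replicate 1 (edgeR adjusted p = 0.0152). 1110028F11Rik, an RNA inside the Rnf43 locus on the same strand, had 0.188, 0.417 and 0.376 CPM in allogeneic KO and 0.156, 0.153 and 0.135 CPM in allogeneic WT libraries. Its difference was 1.15 ± 0.44 (adjusted p = 0.963) there and 0.24 ± 0.41 (adjusted p = 0.817) in the syngeneic setting. The 5 tested neighbours of Gm10524 were not called either.

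**Figure D5:**
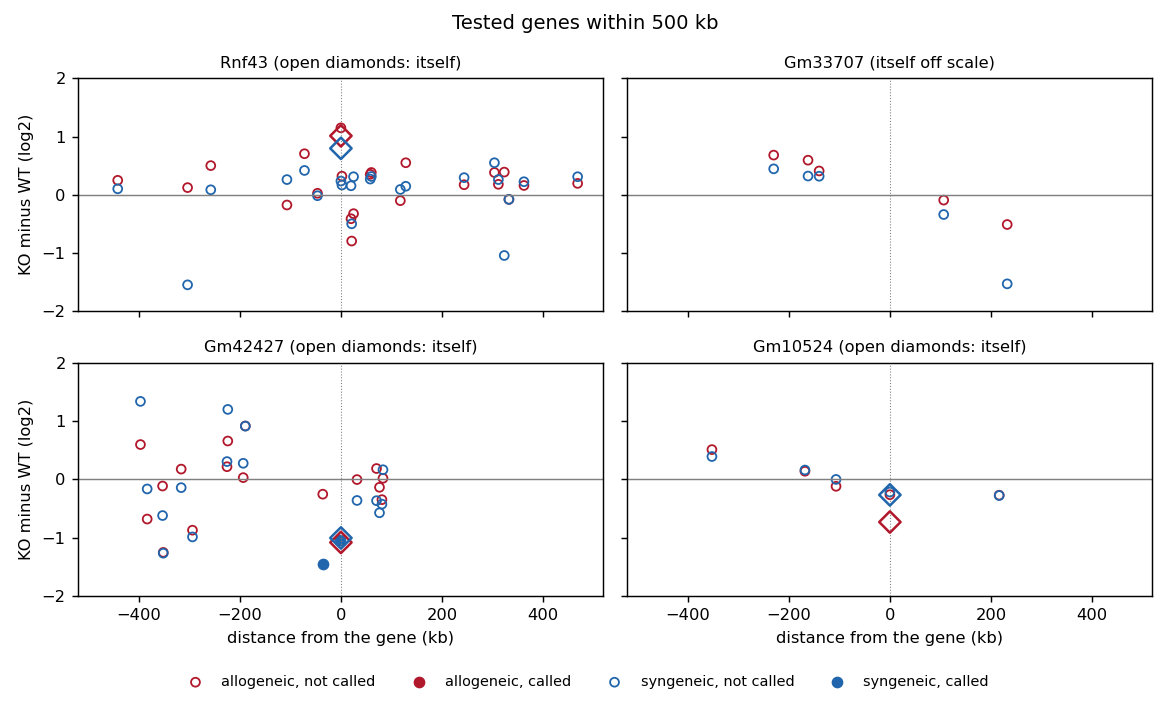
KO minus WT log2 fold change (y axis) of tested genes within 500 kb against distance (x axis, kb), 1 panel for each of the 4 genes, allogeneic in red and syngeneic in blue. Filled points are called, which 2 syngeneic values beside Gm42427 are, and open diamonds are the genes themselves.

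In all, 9 of 18447 genes (0.0488%) were called in both KO minus WT comparisons. They were Rnf43, Gm33707, Gm42427, Ifi208, Hist1h4m and the 4 Y-linked genes, and Gm42427 was the only one of them that was lower in KO. The count varied with the libraries kept and with the fit. Without allogeneic WT replicate 1 or 2, 3 genes were called in both, Gm33707, Hist1h4m and Ifi208. Without allogeneic WT replicate 3 there were 2, Gm33707 and Hist1h4m. There were 6 without allogeneic KO replicate 2, 13 without allogeneic KO replicate 3 and 5 in fits of 1 setting alone. The allogeneic call of Kdm5d held in 8 of 18 alternatives (highest edgeR adjusted p = 0.393), that of Uty in 13, and those of Ddx3y and Eif2s3y in 15 each. DESeq2 called 37 genes in both comparisons.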

How the data were processed

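RNA was sequenced after depletion of ribosomal RNA. The deposited table holds estimated counts per gene, made by the authors; the submitters' processing notes name GRCm38, Cuffdiff 2.2.1, Cufflinks, Bowtie2 2.2.1 and TopHat2 2.0.13, without their roles, and the strand setting and treatment of reads that fit several genes are not given in the sources used here. Of 18 labelled samples, 12 were analysed; 6 naive samples and 6 columns that could not be tied to a sample were not used here. Syngeneic KO libraries were grouped by their transplant type, because another label field of theirs names the allogeneic recipient strain.

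Counts were rounded and scaled by TMM, and genes were kept by filterByExpr (count minimum 10), which left 18447. All 12 libraries entered 1 quasi-likelihood fit of 4 group means (edgeR 4.0.16 in R 4.3.3), with 8 residual degrees of freedom and Benjamini-Hochberg adjustment over all tested genes at 0.05. The biological coefficient of variation was 0.249. Transcripts of GENCODE M21 were compared with blastn 2.17.0, and 45225 identifiers matched that annotation. Scripts were tested on simulated data. DESeq2 1.42.0, other scaling, no filter, a replicate block, leaving out ribosomal RNA genes or single libraries, and a fit of 1 setting alone were the alternatives. Intervals of count ratios cover counting error only. Unadjusted p under 0.05 was not counted over all tested genes.

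Replicate numbers are shared by the groups in the labels. Deviations of same-numbered libraries from their group means correlated at 0.170 to 0.545 between syngeneic KO and WT. Between allogeneic KO and WT they correlated at −0.137 to 0.184. Different-numbered syngeneic KO and WT libraries ran from −0.501 to 0.363, which overlaps the same-numbered range, so the numbers do not establish pairs. The main fit used no pairing, and the replicate block was an alternative.

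The members and gene lists were chosen with earlier results of these data known. Named genes were the 4 members, Wapl, the 5 tested genes most correlated with each member over the 12 libraries, the nearest tested gene on each side of a member and any overlapping it, genes called in both KO minus WT comparisons, up to 4 called genes with the smallest p per Wnt or ligase list and comparison, and the genes just inside and outside the allogeneic threshold. Other named genes, among them Rnf13, Axin2, Prom1, Gm38326, Gm42429 and the genes that share sequence with Gm33707 or Gm42427, were chosen after their values were seen.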

Additional observations from a re-analysis of the deposited data

Results flagged for a closer look

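Ifi208, called in both KO minus WT comparisons, differed between them. Its KO minus WT log2 fold change was 2.07 ± 0.19 in the allogeneic and 0.74 ± 0.18 in the syngeneic setting, and the difference between the 2 changes was 1.33 ± 0.25 (edgeR adjusted p = 0.0399). KO exceeded WT in all 3 libraries of each setting. The syngeneic call was lost with the replicate block (adjusted p = 0.0536), and over the alternatives its adjusted p reached 0.195, without syngeneic WT replicate 2.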

How the results depend on the processing

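No direction reversed under any alternative. Of the KO minus WT values of the 4 genes, 142 moved by less than the spread and 2 moved beyond it, both for Gm33707, which rests on 1 or 2 WT reads. Leaving out single libraries gave Gm33707 values of 7.01 to 8.94 in the allogeneic and 5.96 to 6.86 in the syngeneic setting. Between settings 67 values kept their side of the threshold, and Gm42427 ran from 0.12 to 0.26 with single libraries left out. Of the Wnt genes called in syngeneic KO, 2 in all, DESeq2 gave 4, the replicate block 1 and single libraries left out 0 to 3. DESeq2 called 1 ligase (against 0) and 2 neighbours (against 0) in the allogeneic comparison. Neighbours called in the syngeneic comparison, 2 in all, were 6 without the filter, 6 with DESeq2 and 0 to 5 with single libraries left out. Over all genes, the allogeneic comparison called 10, against 77 by DESeq2, 6 in a fit of that setting alone and 3 without allogeneic WT replicate 1, 2 or 3. The syngeneic comparison called 622, against 1018 by DESeq2, 349 in a fit of that setting alone, 410 and 266 without syngeneic KO replicate 1 and 2, and 260 and 280 without syngeneic WT replicate 2 and 3. The block ended the syngeneic calls of Wapl, Frat2 and Ifi208 given above. Low counts limit Gm33707, Gm38326 and Gm5575, and sequence shared between genes limits Gm42427 and Gm10524.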
